A study of Sus scrofa with 10 samples.

Results

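YAP1, its relative WWTR1, the TEAD transcription factors they bind, and the proteins that hold them in check were followed in pig morulae in which DDB1 had been targeted with a small interfering RNA (siRNA). The 10 genes were YAP1, WWTR1, TEAD1, TEAD2, TEAD3, TEAD4, VGLL4, LATS1, LATS2 and AMOT. They were taken by gene name from the deposited tables, in which each name had 1 row, and they made up 10 of 24358 listed genes and 28 of 47421 listed isoforms. YAP1 was chosen partly for its difference between the groups in these same libraries, so its values are given as a description without a test.

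All oocytes were matured porcine oocytes that received an siRNA by injection, were activated parthenogenetically, that is without sperm, and reached the morula in culture. The 5 DDB1_KD libraries are from oocytes given DDB1-siRNA, the 5 NC libraries from oocytes given non-specific siRNA. The labels give no breed, no hours of culture and no number of embryos per library, and an embryo activated in this way carries no paternal genome. The morula is the stage at which outer and inner cells begin to differ, and the series title names lineage differentiation as a subject of the study.

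In the Hippo pathway, a chain of kinases ends in LATS1 and LATS2, which phosphorylate the coactivators YAP1 and WWTR1 (TAZ) and thereby keep them in the cytoplasm or mark them for destruction. Unphosphorylated YAP1 and WWTR1 enter the nucleus, where they bind TEAD proteins on DNA and switch on target genes. VGLL4 competes with YAP1 for TEAD proteins, and AMOT, an adaptor at cell junctions, binds YAP1 and activates LATS kinases. In mouse embryos Tead4 with nuclear Yap1 in outer cells drives Cdx2 and Gata3 and so the trophectoderm, while Amot and Lats kinases keep Yap1 out of the nucleus of inner cells. DDB1 is the adaptor of CUL4 ubiquitin ligases, and in human cells a form of this ligase with the receptor DCAF1 ubiquitinates LATS1 and LATS2. The regulation of these proteins is largely by phosphorylation and location, which RNA levels do not show.

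The libraries held 32466912 to 50911295 estimated counts each, with 13522 to 14755 genes having a count, and no library was a copy of another (highest correlation 0.964 on the log2(CPM + 1) scale). DDB1 itself was at 3.37 ± 0.708 FPKM (fragments per kilobase, scaled to library depth) in NC against 1.27 ± 0.227 FPKM in DDB1_KD (n = 5 each, SD). All DDB1_KD libraries were below all NC libraries for DDB1, with a log2 fold change of -1.39 (SE 0.28), but its adjusted p in edgeR's quasi-likelihood test was 0.977. Of 8476 genes tested, those with a mean of at least 1 FPKM, 0 (0%) had an adjusted p under 0.05 in edgeR, 0 (0%) in limma and 2 (0.0236%) in DESeq2, and 245 (2.89%) had an unadjusted p under 0.05 in edgeR. The labels do not say whether replicates are separate cultures, and the p-values therefore reflect only library spread, which may be technical. In bulk RNA, fewer cells of a type and less RNA per cell cannot be told apart.

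YAP1, chosen partly on this contrast, had the largest fold difference between the groups of the 8 tested genes of the set. The YAP1 gene (ENSSSCG00000031429) lies on chromosome 9, 32811231 to 32925606, plus strand, in the susScr11 build that is used for all coordinates here. Its level was 0.885, 0.699, 0.271, 0.947 and 0.555 FPKM in DDB1_KD replicates 1 to 5, and 5.18, 1.29, 2.04, 2.24 and 3.18 FPKM in NC replicates 1 to 5. Every DDB1_KD library was below every NC library, and within NC the first replicate was far above the second.

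The mean level of YAP1 was 2.79 ± 1.498 FPKM in NC against 0.672 ± 0.272 FPKM in DDB1_KD (n = 5 each, SD). The fitted log2 fold change was -2.05 (SE 0.42), which puts the DDB1_KD level at 24.1% of the NC level. The estimates rest on few counts, 66 to 219 estimated counts per DDB1_KD library and 319 to 1033 per NC library. Among all 8476 tested genes, 19 (0.224%) had every DDB1_KD library below every NC library, YAP1 and DDB1 among them, and nothing is read from this for YAP1, which was chosen on this contrast.

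WWTR1, the paralog of YAP1 with the same TEAD partners, did not show this separation. WWTR1 (ENSSSCG00000011704, chromosome 13, 89746016 to 89889187, minus strand) was at 11.3, 10.9, 10.9, 16.3 and 2.53 FPKM in DDB1_KD replicates 1 to 5 and at 9.88, 6.93, 6.59, 8.99 and 13.0 FPKM in NC replicates 1 to 5. The groups overlapped: the fifth DDB1_KD library was the lowest of the 10, while the fourth was above all NC libraries and the other 3 above 4 of the 5. Mean WWTR1 levels in DDB1_KD and NC were 10.4 ± 4.95 and 9.07 ± 2.58 FPKM (n = 5 each, SD), and the log2 fold change was 0.18 (SE 0.39, edgeR adjusted p = 0.977). With 1 library left out it ran from 0.02 without the fourth DDB1_KD library to 0.43 without the fifth, and it was 0.08 without the third NC library.

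YAP1 made up 7.26%, 6.02%, 2.42%, 5.49% and 18.0% of the summed YAP1 and WWTR1 level in DDB1_KD replicates 1 to 5, and 34.4%, 15.7%, 23.7%, 19.96% and 19.7% in NC replicates 1 to 5. The fifth DDB1_KD library lay inside the NC range, and there WWTR1 was low as well as YAP1. This share contains the YAP1 level that chose the gene and is a description. The summed level of both coactivators was 11.9 ± 3.63 FPKM in NC against 11.1 ± 5.08 FPKM in DDB1_KD (n = 5 each, SD), most of it WWTR1. FPKM divides by the length of the listed gene model, and that of WWTR1 has only 1164 bases against 5395 for the leading YAP1 model, so the order of the pair depends on how complete these models are.

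**Figure D1:**
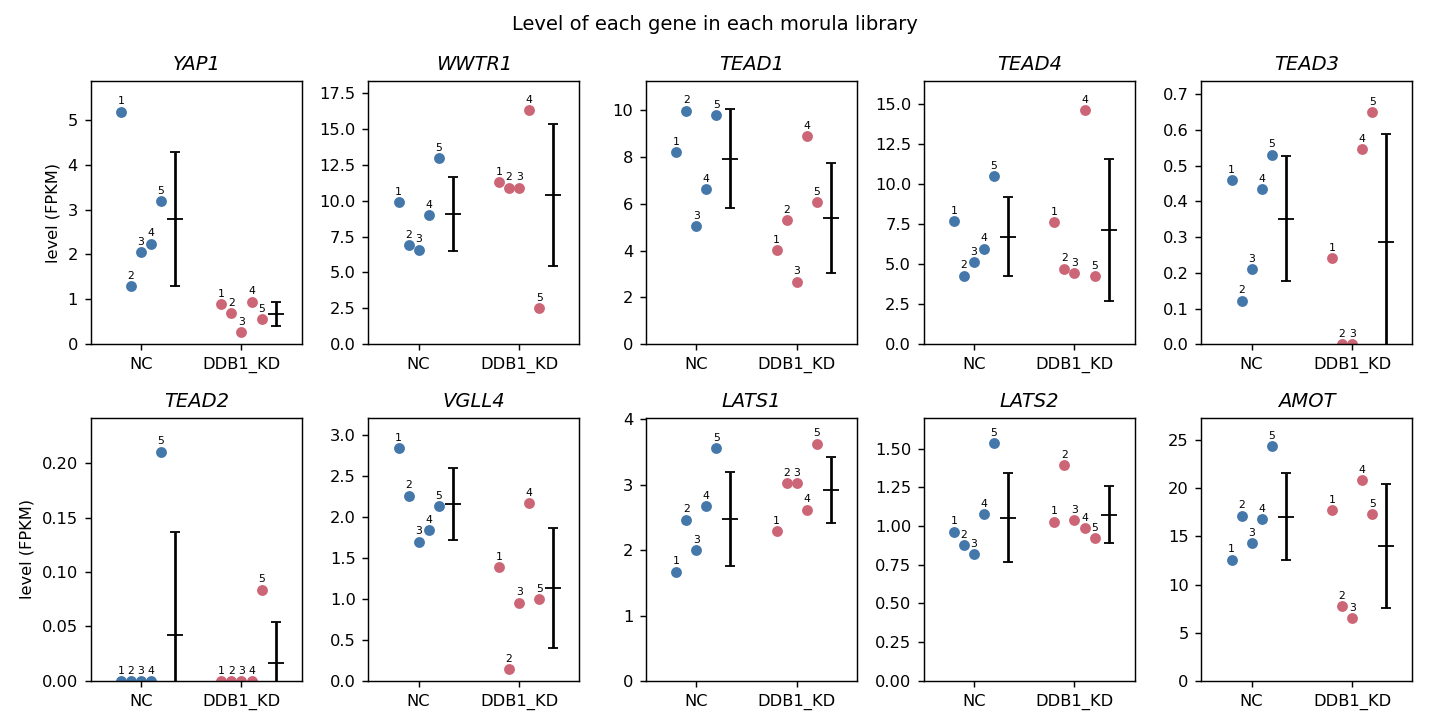
Deposited gene level (FPKM, linear axis from 0, scaled for each gene) of the 10 genes in every library, with points numbered by replicate and bars giving the mean and SD of each group of 5. In the YAP1 panel all 5 DDB1_KD points lie below all 5 NC points, from 0.271 to 0.947 against 1.29 to 5.18 FPKM. YAP1 was chosen partly for this difference, so nothing is read from it. Of all 8476 tested genes, 19 (0.224%) were separated in this direction.

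TEAD1 and TEAD4 carried most of the TEAD RNA of these embryos. TEAD1 (ENSSSCG00000013399, chromosome 2, 46400066 to 46670472, minus strand) was at 4.04, 5.29, 2.68, 8.89 and 6.06 FPKM in DDB1_KD replicates 1 to 5 and at 8.21, 9.99, 5.04, 6.64 and 9.81 FPKM in NC replicates 1 to 5. The third DDB1_KD library was the lowest and the second NC library the highest, but the ranges overlapped, with the fourth DDB1_KD library above 3 of the NC libraries. The DDB1_KD and NC means were 5.39 ± 2.34 and 7.94 ± 2.11 FPKM (n = 5 each, SD), with a log2 fold change of -0.58 (SE 0.30, edgeR adjusted p = 0.977).

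TEAD4, the family member required for trophectoderm in mouse embryos, was present in every library. TEAD4 (ENSSSCG00000000736, chromosome 5, 67124726 to 67194381, minus strand) was at 7.62, 4.72, 4.44, 14.6 and 4.24 FPKM in DDB1_KD replicates 1 to 5 and at 7.67, 4.28, 5.14, 5.97 and 10.5 FPKM in NC replicates 1 to 5. The fourth DDB1_KD library was the highest and the fifth the lowest of all 10, so the NC values lay between the extremes of DDB1_KD. The DDB1_KD and NC means were 7.13 ± 4.41 and 6.71 ± 2.45 FPKM (n = 5 each, SD), with a log2 fold change of 0.07 (SE 0.34, edgeR adjusted p = 0.984). Its sign turned with the library left out, from -0.29 to 0.26, the lowest without the fourth DDB1_KD library and the highest without the fifth NC library. It was also below 0 without the second (-0.03) or the third (-0.02) NC library.

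TEAD2 and TEAD3, the other members of the family, were below the level at which genes were tested. TEAD2 (ENSSSCG00000025568, chromosome 6, 54448188 to 54462282, minus strand) had 0 counts in 8 libraries, each of which allows up to 3 counts, 12 counts (0.0838 FPKM) in the fifth DDB1_KD library and 30 counts (0.211 FPKM) in the fifth NC library. TEAD3 (ENSSSCG00000001544, chromosome 7, 31337890 to 31351452, minus strand) was at 0.241, 0, 0, 0.546 and 0.649 FPKM in DDB1_KD replicates 1 to 5 and at 0.459, 0.122, 0.211, 0.435 and 0.531 FPKM in NC replicates 1 to 5. It had 0 to 43 counts per DDB1_KD library and 8 to 35 per NC library, and the groups overlapped.

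The summed level of the 4 TEAD genes was 15.0 ± 3.99 FPKM in NC against 12.8 ± 6.53 FPKM in DDB1_KD (n = 5 each, SD). TEAD4 made up 38.4% to 64.1% of it in DDB1_KD and 29.7% to 49.8% in NC, overlapping ranges in which TEAD1 and TEAD4 changed places from library to library. By gene FPKM, TEAD1 was above TEAD4 in 3 of 5 NC libraries and in 2 of 5 DDB1_KD libraries. The gene FPKM of TEAD4 divides by about 5986 bases, but its model with the most counts has 1573 bases. That model alone was at 8.89 ± 6.48 FPKM in NC and 11.7 ± 10.6 FPKM in DDB1_KD (n = 5 each, SD). The order and shares of TEAD1 and TEAD4 therefore depend on the length used.

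VGLL4, which displaces YAP1 from TEAD proteins, had a lower mean in DDB1_KD but did not pass the test. VGLL4 (ENSSSCG00000030581, chromosome 13, 67698085 to 67873529, minus strand) was at 1.39, 0.146, 0.956, 2.17 and 1.001 FPKM in DDB1_KD replicates 1 to 5 and at 2.84, 2.26, 1.70, 1.84 and 2.14 FPKM in NC replicates 1 to 5. The second DDB1_KD library, with 28 counts, was far below the rest, and the fourth alone reached into the NC range. Mean VGLL4 levels in DDB1_KD and NC were 1.13 ± 0.736 and 2.16 ± 0.443 FPKM (n = 5 each, SD), with a log2 fold change of -0.93 (SE 0.51, edgeR adjusted p = 0.977) that was -0.65 without the second DDB1_KD library. VGLL4 overlaps ATG7 on the other strand (mean 1.65 FPKM), and the use of strand in counting is unstated in these sources, so reads of the pair cannot be told apart.

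**Figure D2:**
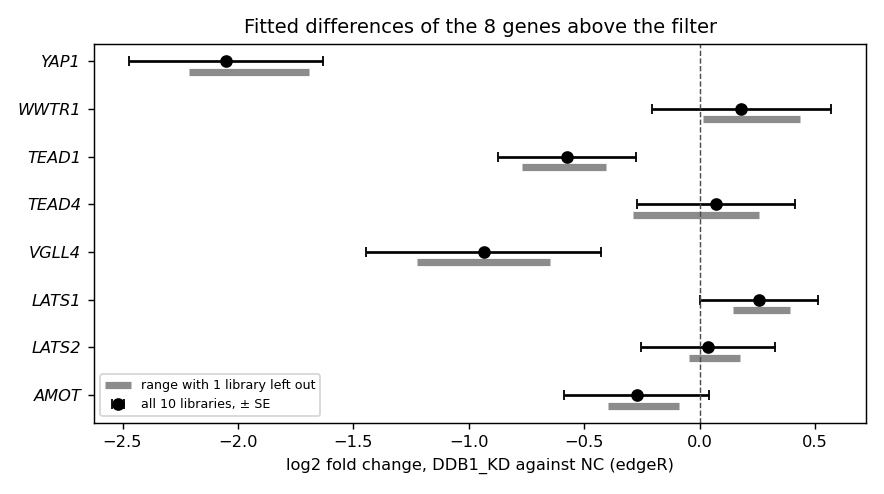
Fitted log2 fold change of DDB1_KD against NC (points with bars of 1 SE either side, grey bars for the range with 1 library left out) for the 8 genes with a mean of at least 1 FPKM, from edgeR on estimated counts, n = 5 libraries per group. YAP1, drawn as a description, is at -2.05, VGLL4 at -0.93 and TEAD1 at -0.58, and the other 5 lie between -0.27 and 0.26.

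The LATS kinases, which phosphorylate YAP1 and WWTR1, had overlapping ranges in the groups, and neither passed the test. LATS1 (ENSSSCG00000004106, chromosome 1, 16274843 to 16321581, plus strand) was at 2.29, 3.02, 3.03, 2.62 and 3.63 FPKM in DDB1_KD replicates 1 to 5 and at 1.67, 2.47, 2.004, 2.67 and 3.56 FPKM in NC replicates 1 to 5. The lowest values were those of 2 NC libraries, the first and the third, and the highest that of the fifth DDB1_KD library. The DDB1_KD and NC means were 2.92 ± 0.503 and 2.47 ± 0.721 FPKM (n = 5 each, SD), with a log2 fold change of 0.26 (SE 0.26, edgeR adjusted p = 0.977) that was 0.15 without the fifth DDB1_KD library and 0.39 without the fifth NC library.

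LATS2 (ENSSSCG00000036326, chromosome 11, 1225526 to 1266380, minus strand) was at 1.03, 1.39, 1.04, 0.989 and 0.921 FPKM in DDB1_KD replicates 1 to 5 and at 0.964, 0.877, 0.818, 1.078 and 1.53 FPKM in NC replicates 1 to 5. The highest value in each group, the second DDB1_KD and the fifth NC library, stood above the other 4, which lay close together across the groups. The DDB1_KD and NC means were 1.07 ± 0.184 and 1.05 ± 0.286 FPKM (n = 5 each, SD), with a log2 fold change of 0.04 (SE 0.29, edgeR adjusted p = 0.988), whose sign turned with the library left out, from -0.05 without the second DDB1_KD library to 0.18 without the fifth NC library. LATS1 exceeded LATS2 in every library, with a ratio of 2.36 ± 0.394 in NC against 2.78 ± 0.718 in DDB1_KD (n = 5 each, SD).

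AMOT, the junction adaptor that binds YAP1 and activates LATS kinases, had the highest mean gene FPKM of the 10 genes in NC. AMOT (ENSSSCG00000012591, chromosome X, 92581998 to 92647857, minus strand) was at 17.7, 7.80, 6.54, 20.8 and 17.3 FPKM in DDB1_KD replicates 1 to 5 and at 12.6, 17.2, 14.3, 16.8 and 24.4 FPKM in NC replicates 1 to 5. DDB1_KD replicates 2 and 3 were below all NC libraries, and the other 3 DDB1_KD libraries were above 4 of the 5. Mean AMOT levels in DDB1_KD and NC were 14.0 ± 6.43 and 17.0 ± 4.52 FPKM (n = 5 each, SD), with a log2 fold change of -0.27 (SE 0.32, edgeR adjusted p = 0.977) that was -0.09 without the third DDB1_KD library, -0.11 without the second and -0.14 without the fifth NC library.

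In NC the order of mean levels was AMOT at 17.0, WWTR1 at 9.07, TEAD1 at 7.94, TEAD4 at 6.71, YAP1 at 2.79, LATS1 at 2.47, VGLL4 at 2.16, LATS2 at 1.05, TEAD3 at 0.352 and TEAD2 at 0.0421 FPKM. The NC ranges of neighbours in this order overlapped, except those of VGLL4 and LATS2 and of LATS2 and TEAD3. The order also depends on the gene lengths used for FPKM, in particular for WWTR1 and TEAD4. YAP1 was above LATS1 in 2 of 5 NC libraries and in 0 of 5 DDB1_KD libraries, where their ranges did not overlap. For most of the 8 tested genes the lowest of the 10 values was in a DDB1_KD library. It was the third for YAP1, TEAD1 and AMOT, the second for VGLL4 and the fifth for WWTR1 and TEAD4. For LATS1 and LATS2 the lowest value was in an NC library. The highest value was in an NC library for YAP1, TEAD1, VGLL4, LATS2 and AMOT. It was in a DDB1_KD library for WWTR1, TEAD4 and LATS1.

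The isoform table lists 2 transcript models of YAP1. The model of 8 exons and 5395 bases (ENSSSCT00000040218) held 96.3%, 85.6%, 85.5%, 89.4% and 98.7% of the YAP1 count in NC replicates 1 to 5. In DDB1_KD replicates 1 to 5 it held 56.2%, 100%, 100%, 100% and 0%, so both models had counts in every NC library but in only 1 DDB1_KD library. The model of 9 exons and 5258 bases (ENSSSCT00000063880) was at 0.196 ± 0.0984 FPKM in NC against 0.195 ± 0.274 FPKM in DDB1_KD (n = 5 each, SD). It had 96, 0, 0, 0 and 150 counts in DDB1_KD replicates 1 to 5 and 38, 46, 57, 69 and 11 in NC. The mean level of the model of 9 exons was thus alike in both groups, but in DDB1_KD it came from 2 libraries. The model of 8 exons was at 2.62 ± 1.54 FPKM in NC against 0.488 ± 0.371 FPKM in DDB1_KD (n = 5 each, SD). A count of 0 allows up to 3 counts, and the sources used here do not state how the authors' tools divided reads between such similar models. Which model carried the difference in YAP1 therefore cannot be told.

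TEAD1 and TEAD4 had the most models with counts and no fixed leading model. For TEAD1, 3 of 6 models alternated, and in each library 1 of them held 75.9% to 99.4% of the count. The model of 13 exons and 5180 bases (ENSSSCT00000054149) led in DDB1_KD replicates 4 and 5 and NC replicates 1, 3 and 4, and that of 13 exons and 5181 bases (ENSSSCT00000059963) in DDB1_KD replicates 2 and 3 and NC replicate 2. The model of 12 exons and 4917 bases (ENSSSCT00000051097) had counts in only 2 libraries, the first DDB1_KD and the fifth NC library, and led in both. The models of 5180 and 5181 bases are nearly alike, and how reads were divided between them is not stated. A change of transcript and a change in the assignment of reads therefore cannot be told apart. The first model's share was 61.5 ± 46.6% in NC against 41.1 ± 53.0% in DDB1_KD (n = 5 each, SD), and the exact two-sided permutation test over all assignments of libraries to groups gave p = 0.516, adjusted over 6 genes 0.619.

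TEAD4 counts were divided among 5 models, and the share of the model with the most counts over all libraries (ENSSSCT00000041605, 12 exons, 1573 bases) ran from 0.604% to 81.1% over the 10 libraries. That share was 33.5 ± 25.6% in NC against 45.5 ± 30.5% in DDB1_KD (n = 5 each, SD, exact permutation p = 0.516, adjusted 0.619). The library with the highest share was the fifth DDB1_KD library and that with the lowest the second NC library.

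**Figure D3:**
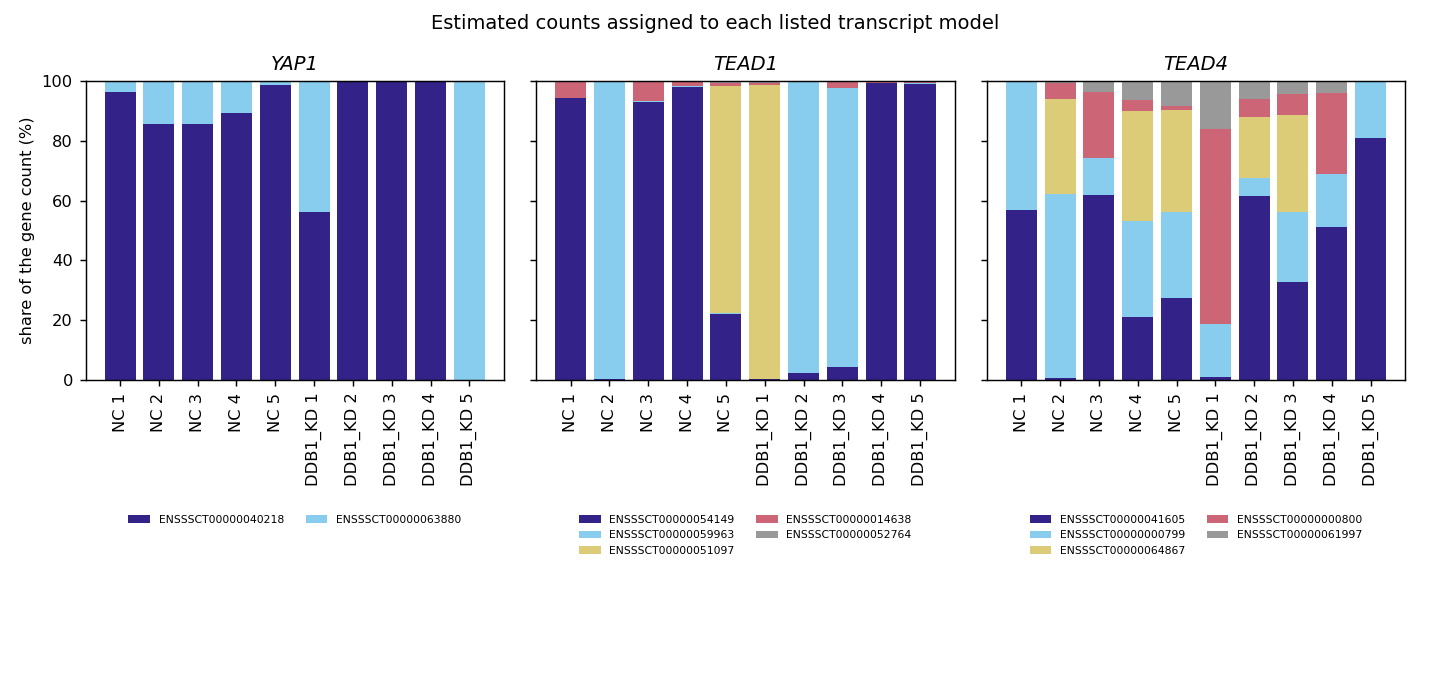
Share (%) of the estimated gene count held by each listed transcript model of YAP1, TEAD1 and TEAD4 in every library, as stacked bars, with models that have no count in any library left out. A single model of TEAD1 fills 75.9% to 99.4% of each bar, but not the same model in all libraries, and YAP1 is split between both of its models in 1 DDB1_KD library and all NC libraries.

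VGLL4, LATS1, LATS2 and AMOT were each led by a single model in all 10 libraries. Its mean share was 98.2% in DDB1_KD and 93.5% in NC for VGLL4, 82.4% and 86.7% for LATS1, 87.5% and 91.0% for LATS2, and 98.8% and 98.9% for AMOT. The differences, 4.77, -4.30, -3.49 and -0.01 percentage points, had exact permutation p-values of 0.294, 0.484, 0.341 and 0.976, and none of the 6 genes tested for a share passed after adjustment. Single libraries set much of these differences: that of VGLL4 was 0.890 points without the third NC library, and without the first NC library those of LATS1 and LATS2 were -0.967 and -1.63 points. Of the 28 isoforms, 14 reached a mean of 1 FPKM, and 4 had 0 counts in every library. Of 11250 isoforms tested in edgeR, 1 (0.00889%) passed, and it was not an isoform of these genes. DESeq2 passed 68 (0.604%), and 378 (3.36%) had an unadjusted p under 0.05 in edgeR.

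**Figure D4:**
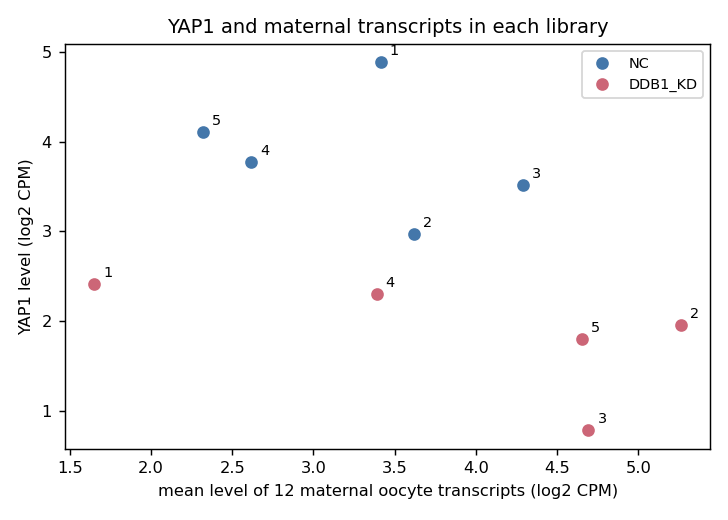
YAP1 level (log2 CPM, vertical axis) against the mean level of 12 maternal oocyte transcripts (log2 CPM, horizontal axis) in each of the 10 libraries, coloured by group. The NC libraries span 2.32 to 4.29 log2 CPM of maternal transcripts, a range that holds a single DDB1_KD library, at 3.39. Numbers are replicates.

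RNA stored by the oocyte is removed as the embryo activates its own genes, and such transcripts varied between libraries, with a higher mean in DDB1_KD but overlapping ranges. Of 16 listed maternal genes found, 12 were tested. All 12 had a log2 fold change above 0, as had 4240 of all 8476 genes tested, though none passed. Their median was 0.93 against 0.00 for all genes. The list was written with earlier results of these data known, so this count is a description. ZP4, a zona pellucida protein, was at 2.67 ± 1.47 FPKM in NC against 10.8 ± 11.1 FPKM in DDB1_KD, and KPNA7, an oocyte importin, at 7.70 ± 5.26 FPKM in NC against 20.7 ± 26.4 FPKM in DDB1_KD (n = 5 each, SD). The summed FPKM of the 16 genes ran from 32.3 to 558 in DDB1_KD and from 51.2 to 184 in NC.

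Beside YAP1, the mean maternal level was 1.65, 5.26, 4.69, 3.39 and 4.65 log2 CPM in DDB1_KD replicates 1 to 5 and 3.41, 3.62, 4.29, 2.62 and 2.32 log2 CPM in NC replicates 1 to 5. Of the DDB1_KD libraries, the fourth alone lay within the NC range, with the first below it and the other 3 above. There, at 3.39 log2 CPM, YAP1 was at 0.947 FPKM, and in the NC libraries nearest to it, the first and the second, YAP1 was at 5.18 and 1.29 FPKM. The part of the maternal level in the YAP1 difference was not tested. With the maternal level as a covariate the log2 fold change was 0.34 for WWTR1, 0.30 for TEAD4, 0.07 for LATS2 and -0.10 for AMOT. Without the covariate these were 0.18, 0.07, 0.04 and -0.27. For TEAD1, VGLL4 and LATS1 the values were -0.53, -0.80 and 0.24 with the covariate, against -0.58, -0.93 and 0.26 without it. For YAP1, given as a description, the value was -1.92 with the covariate and -2.05 without it.

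Markers of the embryo were present in every library and those of somatic follicle cells were near 0. POU5F1, a pluripotency factor of the early embryo, was at 27.8 to 119 FPKM in DDB1_KD and 52.3 to 123 FPKM in NC. Of 13 cumulus and granulosa markers found, FSHR and AMH had 0 counts in all libraries and only NR5A2 reached a mean of 1 FPKM. The 13 summed to 0.493 to 3.92 FPKM in DDB1_KD and 0.826 to 4.26 FPKM in NC.

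Genes upstream of LATS lay on both sides of 0. Of 26 kinases, adaptors and scaffolds other than the 10 genes, 17 were tested, 6 with a log2 fold change above 0 and 11 below, with a median of -0.08 beside 4240 above and 4236 below among all genes, and none passed. WWC3, a KIBRA family scaffold that stimulates LATS, was at 4.02 ± 1.88 FPKM in NC against 2.18 ± 0.937 FPKM in DDB1_KD (n = 5 each, SD; log2 fold change -0.86, SE 0.44). MAP4K3, a kinase of the MAP4K family that can act on LATS, had -0.36, AMOTL2, a relative of AMOT, -0.66, and TAOK2, a kinase that activates MST kinases, 0.19. WTIP, a LIM protein that binds LATS, had 0 counts in all libraries.

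PTPN14, a phosphatase that binds YAP1 and holds it back and is itself among its target genes, was below the filter and was singled out after its values were seen. It was at 0.0450, 0.172, 0.3004, 0.155 and 0.325 FPKM in DDB1_KD replicates 1 to 5 and at 0.613, 0.403, 0.481, 0.508 and 0.5502 FPKM in NC replicates 1 to 5. All DDB1_KD libraries were below all NC libraries, which held for 37 of 18578 genes with a count (0.199%). It had 8 to 58 counts in DDB1_KD and 61 to 98 in NC, and without a filter its log2 fold change was -1.31 (SE 0.65, edgeR adjusted p = 0.688).

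The STRIPAK complex, a phosphatase assembly that turns off MST and MAP4K kinases, had 9 genes tested, 3 with a log2 fold change above 0 and 6 below (median -0.09), and none passed. The sign of this median turned with the library left out, from -0.23 without the fourth DDB1_KD library to 0.05 without the third. STRN, a striatin subunit, was at 2.88 ± 0.656 FPKM in NC against 1.63 ± 0.420 FPKM in DDB1_KD (n = 5 each, SD), with a log2 fold change of -0.84 (SE 0.27) and an unadjusted p of 0.0095 (1.13% of all genes were lower in DDB1_KD at an unadjusted p under 0.05). SIKE1 and PPP2CA, subunits of the assembly, had log2 fold changes of 0.37 and 0.28, and STRN3, another striatin, -0.25. All 4 had an adjusted p of 0.977 in edgeR.

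Genes that hold YAP1 in the cytoplasm, modify it or bind TEAD in its place had 15 tested, 7 above 0 and 8 below, with a median of -0.02, and none passed. This median was 0.11 without the third DDB1_KD library. PTPN11, a phosphatase that binds YAP1, had a log2 fold change of -0.38, YWHAH, a 14-3-3 protein of the family that retains phosphorylated YAP1, -0.33, YES1, the kinase for which YAP1 was named, 0.33, and VGLL3, a TEAD cofactor, 0.63. DCAF1, the ligase receptor for LATS kinases in human cells, was at 4.86 ± 1.53 FPKM in NC against 4.77 ± 1.39 FPKM in DDB1_KD (n = 5 each, SD; log2 fold change -0.04, SE 0.26).

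Target genes of YAP and TEAD, a conserved set from human cancer cells, lay on both sides of 0. Of 21 found, 8 were tested, 4 above 0 and 4 below, with a median of -0.03, and none passed. That median ran from -0.22 without the fifth DDB1_KD library to 0.11 without the first NC library. CCN2, a secreted matrix protein and a standard YAP target, was at 2.67 ± 0.805 FPKM in NC against 3.72 ± 1.602 FPKM in DDB1_KD (n = 5 each, SD; log2 fold change 0.47, SE 0.32). CCN1, its relative, was at 11.4 ± 3.61 FPKM in NC against 10.3 ± 5.23 FPKM in DDB1_KD (n = 5 each, SD; -0.10, SE 0.36). GADD45A, a stress response gene, had a log2 fold change of -0.72 and ASAP1, an ARF GTPase activator, 0.17. AMOTL2, counted here as well as among the genes upstream of LATS, had -0.66 (SE 0.43). ANKRD1, another standard target, was below the filter in both groups.

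The list of mouse trophectoderm genes downstream of Tead4 and Yap1, in which TFAP2C was also placed, had 4 of 7 tested. All 4 had a log2 fold change below 0, as had 4236 of all 8476 genes tested, and none passed. Their median was -0.92, a value that includes TFAP2C. GATA3, a trophectoderm transcription factor, was at 5.86 ± 4.98 FPKM in NC against 2.27 ± 2.13 FPKM in DDB1_KD (n = 5 each, SD; log2 fold change -1.34, SE 1.02). KRT18 and KRT8, keratins of the outer epithelium, had log2 fold changes of -1.02 (SE 0.84) and -0.82 (SE 1.05), and TFAP2C, which acts upstream of trophectoderm genes, -0.12 (SE 0.24). Single libraries of a group differed widely in GATA3, KRT18 and KRT8, with KRT8 from 0.0754 to 119 FPKM within DDB1_KD. The median of the 4 genes ran from -1.68 without the fourth DDB1_KD library to -0.37 without the first NC library. CDX2, EOMES and ELF5 were below the filter in both groups, and CDX2 did not exceed 0.228 FPKM in any library.

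**Figure D5:**
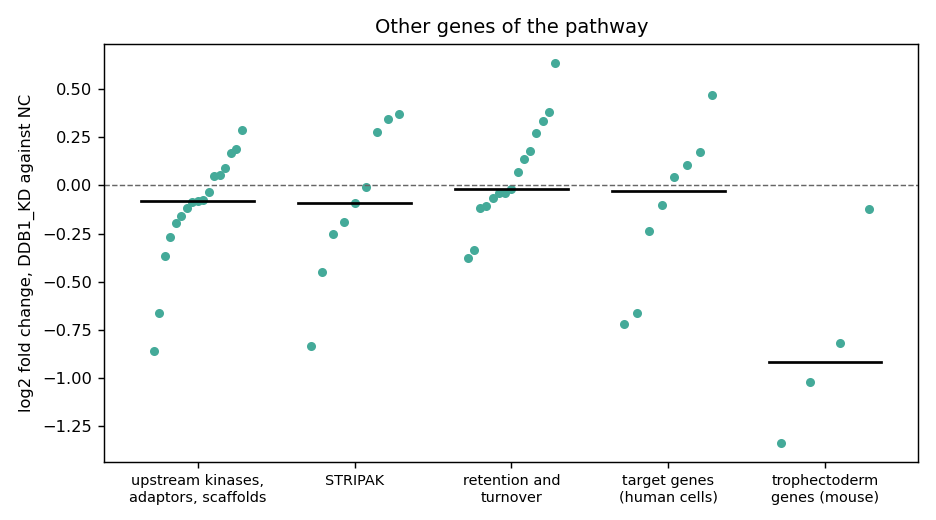
Fitted log2 fold change of DDB1_KD against NC for each tested gene of the 5 lists of other pathway genes, with the median of each list marked, from edgeR with n = 5 libraries per group. The medians are -0.08, -0.09, -0.02 and -0.03 for the first 4 lists and -0.92 for the 4 trophectoderm genes.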

How the data were processed

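RNA from 10 pig morula samples (5 DDB1_KD, 5 NC, from the sample titles) was sequenced as paired-end reads (Illumina), per the labels' protocols. The deposited tables give FPKM and whole-number estimated counts for 24358 genes and 47421 isoforms, per the file headers. They spell the DDB1_KD columns DBB1, and these were matched by group word and number. The submitters' processing notes name fastp, HISAT2, StringTie and edgeR, among others, and susScr11, with no version or role. Isoform counts equal FPKM times length times a constant (100% within 1.5 counts plus 0.5%), and gene counts are sums of isoform counts, so their error may not be that of read tallies. Limits from a count of 0 cover counting error only. FPKM is 0.0001 where the count is 0 and is written as 0 here. Depth is 32466912 to 50911295 counts.

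edgeR 4.0.16 (TMM, glmQLFit, glmQLFTest, R 4.3.3) was run on the deposited estimated counts of genes or isoforms with a mean of at least 1 FPKM (8476 and 11250), with Benjamini-Hochberg adjustment and a threshold of 0.05. The fits were tested on simulated data. Alternatives used limma 3.58.1, DESeq2 1.42.0, other scalings and filters, covariates and each library left out. Log2 CPM uses a prior count of 2. Tables and figures were made with pandas 2.3.3, matplotlib 3.10.9 and Python 3.11.15. Symbols came from the tables for 17451 genes, from Ensembl names for 951 and, by matched position, from NCBI RefSeq (Sscrofa11.1) for 675. Named are all 10 genes, DDB1, up to 4 genes of each list with the smallest unadjusted p, markers at 0 and the 3 genes most like YAP1; CCN1, DCAF1, ANKRD1, NR5A2, ATG7 and PTPN14, and the trophectoderm genes below the filter, were named beyond this. The genes and lists were chosen with earlier results of these data known. No sequences of these genes were used here.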

Additional observations from a re-analysis of the deposited data

Results flagged for a closer look

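In 34 groups of 5 values, the level and leading isoform share of each gene in each group, 4 had an extreme value standing apart from the others, where chance gives about 1 in 20. TEAD2 was at 0.0838 FPKM in the fifth DDB1_KD library and at 0.211 FPKM in the fifth NC library, with the other 4 libraries of each group at 0. With 4 values at 0 any other value stands apart, so the chance rate does not apply to TEAD2. LATS2 was at 1.39 FPKM in the second DDB1_KD library, with the others up to 1.04. The leading isoform of VGLL4 held 78.0% in the third NC library and 95.2% to 99.3% in the others.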

How the results depend on the processing

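The member log2 fold changes were refitted under 19 alternatives each. For YAP1 the values are a description and ran from -2.21 to -1.69 with 1 library left out. They were -1.11 in limma on log2(FPKM + 1), a scale that understates low genes, and -2.01 with the replicate block. YAP1 was chosen partly on this contrast and its groups do not overlap. Its sign below 0 in all alternatives was therefore set beforehand, and nothing is read from it. Between libraries of the same replicate number, deviations from the group mean correlated at -0.056, 0.129, 0.354, -0.053 and -0.142 for replicates 1 to 5. Only replicate 3 correlated best with its own number. Whether libraries of the same number were handled together cannot be told from this. For genes, DESeq2 called 2, DDB1 (-1.36) among them, against 0 in edgeR. For isoforms, against 1 in edgeR, there were 0 without a filter, 0 at a mean of 0.5 FPKM, 68 in DESeq2, 2 in limma with a pseudocount of 0.1, 0 with the replicate block, 0 with the maternal covariate and 0 to 2 with 1 library left out. The sign of TEAD4 turned in limma (-0.0068 and -0.017), with the replicate block (-0.010) and with 1 library left out (-0.29 to 0.26), and that of LATS2 in the last case (-0.048 to 0.18). Among isoforms the sign turned for ENSSSCT00000059963 of TEAD1 in limma (0.19 and 0.64) and with 1 library left out (-1.67 to 6.28), for ENSSSCT00000051097 of TEAD1 (-11.4 to 10.6), for ENSSSCT00000041605 (-0.17 to 0.74) and ENSSSCT00000061997 (-0.17 to 1.57) of TEAD4, and for ENSSSCT00000055321 of LATS2 (-0.13 to 0.12; 0.0077 with RLE scaling and 0.0064 in DESeq2). With 1 library left out, differences in leading isoform share ran from -35.7 to -10.2 points for TEAD1, 3.01 to 23.1 for TEAD4, 0.890 to 6.23 for VGLL4 (7.33 from FPKM), -7.92 to -0.967 for LATS1, -5.50 to -1.63 for LATS2 and -0.40 to 0.42 for AMOT. With the maternal covariate the STRIPAK median was 0.04 and that of the retention and turnover genes 0.17. The trophectoderm median was -2.04 in limma with a pseudocount of 0.1 and -2.01 with the replicate block. The maternal median was 0.12 with the maternal level as covariate. That covariate is the mean level of these same genes, so this fall is built in. ENSSSCT00000051097 of TEAD1 has counts in only 1 library of each group. Without that library its group is at 0, which sets the extremes given above. The cause of the other changes was not tested.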

Other observations

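Likeness to YAP1 within the groups was ranked among the 8476 tested genes, from log2 CPM over the 10 libraries after each group's mean was subtracted. The highest were OGFOD2 (Pearson r = 0.91), NOC2L (0.91) and ATG13 (0.91). These are the extremes of a long ranking over few libraries. Their log2 fold changes were 0.23, 0.15 and -0.04. Of the other 7 tested genes of the set, TEAD4 was the most like YAP1 (0.65, rank 323) and LATS1 the least (-0.47). All values share the libraries and their depth and are a description only.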
